A study of Mus musculus with 8 samples.

Results

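Carbonic anhydrases are the enzymes that interconvert carbon dioxide and bicarbonate, and 9 genes of the mouse family were followed here across mouse liver and its sorted mesenchymal and mesothelial cells: Car1, Car2, Car3, Car4, Car5a, Car8, Car12, Car13 and Car14. They are 9 of 16 family genes on the array and of 20677 named genes in all. The 9 were chosen from the family with their measured levels on these arrays already known, and each gene is represented by the probe set selected on the highest mean log2 value over all 8 arrays, so their levels are a description and no test was made. All 9 were found, with 19 probe sets, each naming 1 gene only.

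RNA was measured on 8 Affymetrix mouse arrays, 1 per group, all from adult C57Bl6 animals. The first group is whole liver of a wild-type mouse, and the other 7 are cells purified from the liver of Col1a1-GFP transgenic mice, which carry a green fluorescent reporter under a collagen promoter. With no injury named these were VitaminA+ hepatic stellate cells (HSC), VitaminA-GFP+ cells (written VitA-GFP+ from here) and GPM6A+ mesothelial cells (MC). Portal fibroblasts (PF) came from a sham operation, and HSC, PF and MC came from biliary fibrosis. The sources used here do not give the number of animals, the method of biliary fibrosis or the gate for PF. Each group is a single array, so differences below carry no replicate error and no test.

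Most carbonic anhydrases are zinc enzymes that hydrate carbon dioxide to bicarbonate and a proton, and they differ mainly in where in the cell they act. Car1, Car2, Car3 and Car13 are cytosolic, Car5a is mitochondrial, Car4 is held to the outer membrane by a lipid anchor, and Car12 and Car14 cross the membrane with the enzyme outside. Car8 has lost the catalytic activity and is known for binding the inositol trisphosphate receptor in Purkinje cells. In liver the family serves urea and glucose synthesis in hepatocytes and bicarbonate secretion by bile duct cells.

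Values are log2 of the normalized intensity. The median of all non-control probe sets of an array lay between 5.31 (whole liver) and 5.68 (VitA-GFP+ cells), and a level under it is low on that array. A gene is counted as 4-fold higher or lower where its log2 values on 2 arrays are at least 2 apart and the larger reaches the median of its array. Different probe sets bind with different strength, so levels are compared between arrays for a gene and never between genes.

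The arrays carried the markers of their labels. At or above the array median were 12 of 12 hepatocyte markers in whole liver, 10 of 10 stellate cell markers in both HSC arrays, 11 of 11 mesothelial markers in both MC arrays and 11 of 11 portal fibroblast markers in both PF arrays. By this count the stellate list did not set HSC apart, with 10 of 10 in whole liver, VitA-GFP+ cells and sham PF too, although its summed intensity was 65016 and 38516 in the HSC arrays and at most 8718 elsewhere. Nor did the portal list set PF apart, with 11 of 11 in VitA-GFP+ cells and 10 of 11 in HSC and in MC of biliary fibrosis. Other cell types were present too: VitA-GFP+ cells had 11 of 11 mesothelial, 10 of 10 endothelial and 10 of 10 macrophage markers at or above the median. The arrays differ in RNA quality in step with their sample codes. The 3′/5′ ratio of Gapdh was 1.42 to 2.01 on the 4 arrays with codes in T or R (whole liver, HSC, VitA-GFP+ cells, MC) and 5.68 to 13.8 on the 4 with codes in AI (sham PF and the 3 arrays of biliary fibrosis).

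Of the 9 genes, 8 reached the array median on at least 1 array and 2, Car3 and Car14, on all 8. Among all named genes, 15606 of 20677 reached it on at least 1 array and 8450 on all. Per array the number of the 9 at or above the median was 6 in whole liver, 2 in HSC, 5 in VitA-GFP+ cells, 4 in MC, 6 in sham PF, 5 in HSC of biliary fibrosis, 6 in PF of biliary fibrosis and 5 in MC of biliary fibrosis. Over all named genes the share at or above the median ran from 54.4% in HSC to 59.6% in MC of biliary fibrosis. HSC thus had the fewest of the 9 and the lowest share of all genes among the 8 arrays.

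**Figure D1:**
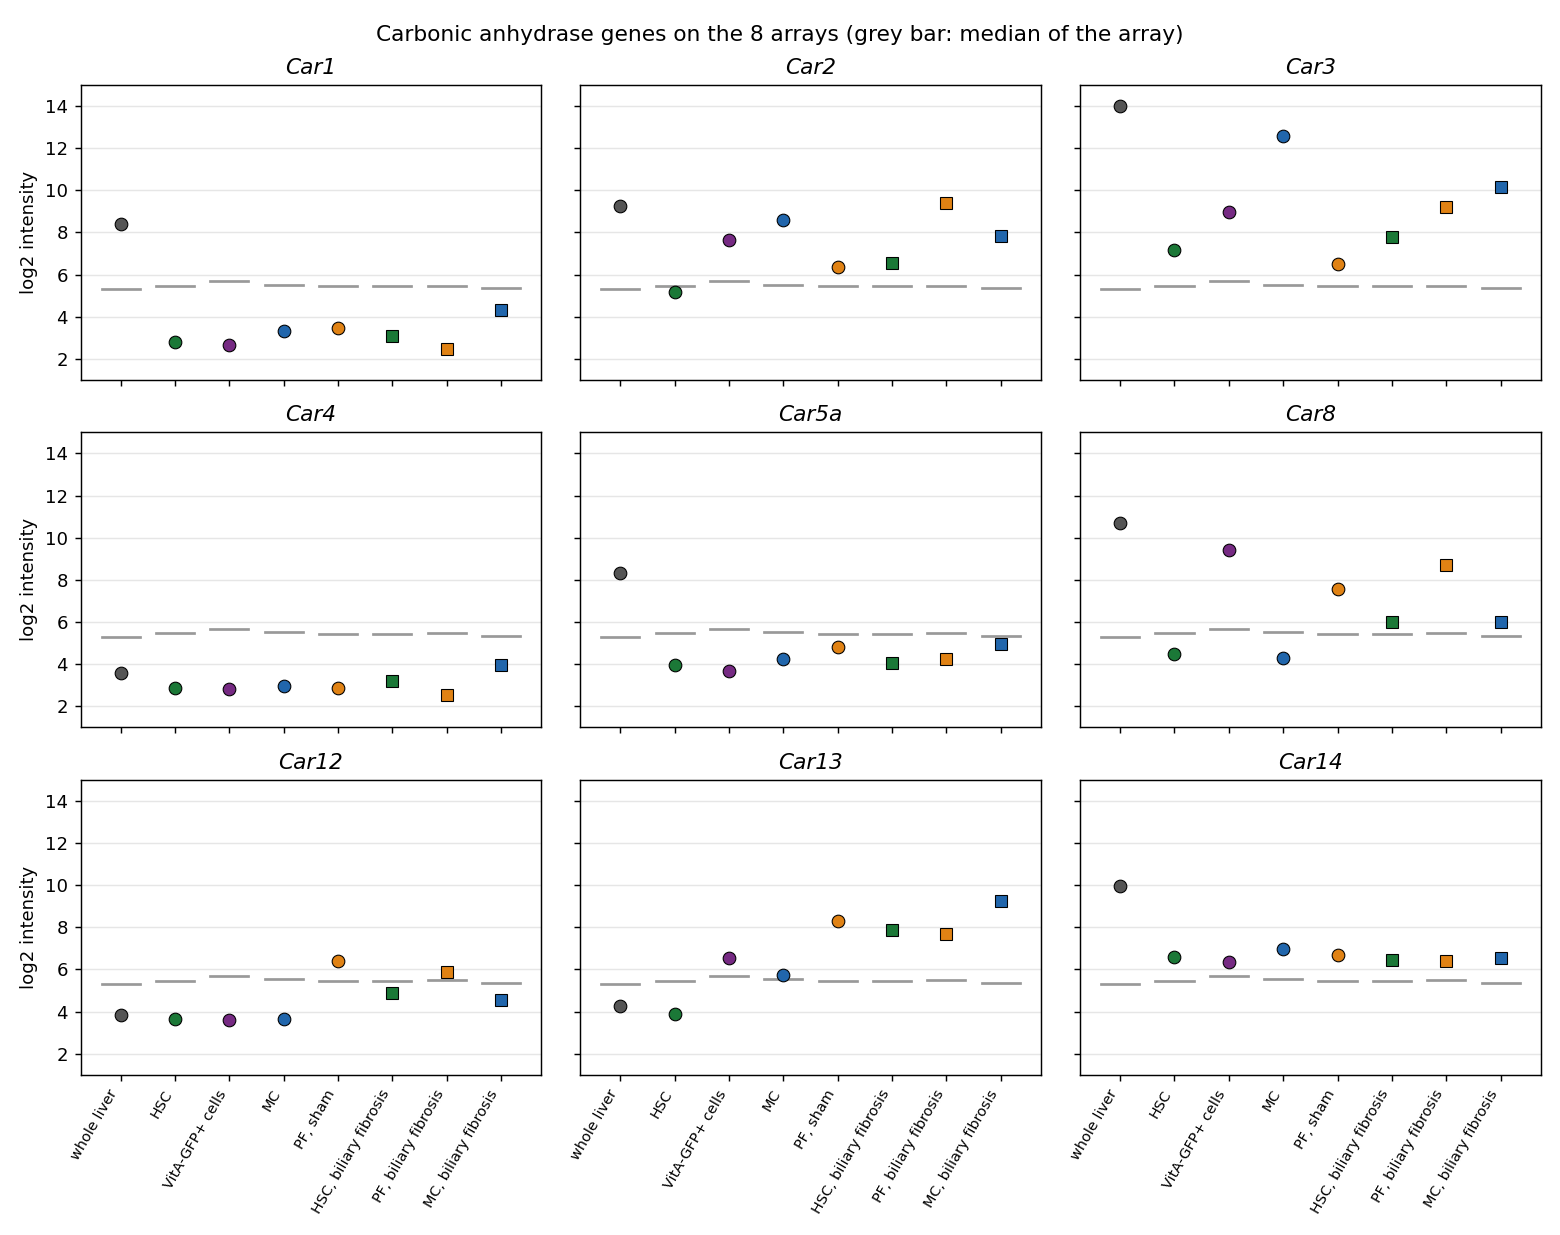
Log2 intensity (vertical axis) of the 9 carbonic anhydrase genes on each of the 8 arrays (horizontal axis), 1 point per array, with squares for biliary fibrosis and grey bars for the median of the array. Car1, Car5a and Car14 stand out in whole liver, Car3 in whole liver and MC, Car12 in the PF arrays and Car13 in the arrays of sham PF and biliary fibrosis.

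Car1, Car5a and Car14 had 1 high array each, whole liver, and varied little among the sorted cells by comparison. Car5a, the mitochondrial form that supplies bicarbonate to carbamoyl phosphate synthetase and pyruvate carboxylase in hepatocytes, was at 8.34 in whole liver. It read 3.96 in HSC, 3.67 in VitA-GFP+ cells, 4.26 in MC, 4.82 in sham PF, 4.07 in HSC, 4.22 in PF and 4.97 in MC of biliary fibrosis, below the array median on all 7. Both of these client enzymes were lower there than in whole liver too. Cps1, the carbamoyl phosphate synthetase, differed from whole liver by -5.61 in HSC and -7.55 in MC, and Pcx, the pyruvate carboxylase, by -4.76 and -5.83.

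Car14, a transmembrane form of the hepatocyte surface, was at 9.94 in whole liver. The 7 sorted arrays held it at 6.58 in HSC, 6.36 in VitA-GFP+ cells, 6.97 in MC, 6.69 in sham PF, 6.42 in HSC, 6.38 in PF and 6.55 in MC of biliary fibrosis. Those 7 values lie close together, and MC, the nearest to whole liver, differed from it by -2.97. The only probe set of Car14 carries a suffix that marks several transcripts. In whole liver the summed intensity of 12 hepatocyte markers was 133583, against 311 to 17111 in the sorted arrays, and the part of hepatocytes in the Car14 and Car5a levels was not tested.

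Car1, the abundant form of red blood cells and of the colon, was at 8.38 in whole liver. Elsewhere it was at 2.80 in HSC, 2.66 in VitA-GFP+ cells, 3.34 in MC, 3.46 in sham PF, 3.10 in HSC, 2.49 in PF and 4.34 in MC of biliary fibrosis, all below the array median. Erythroid markers moved with it in part: 3 of 9 were at or above the median in whole liver, against 0 to 2 in the sorted arrays, with a summed intensity of 631 against 108 to 423. Between HSC and whole liver, 2 of the 9 were 4-fold lower in HSC, with a median difference of -0.36 over the list. Alas2, which starts haem synthesis in red cell precursors, was at 7.51 in whole liver and 2.93 in HSC. Slc4a1, on the same list, went the other way, at 3.42 and 3.94, both below the array median. The part of red cells in the Car1 level was not tested.

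The promoters (GRCm38.p6) of Car5a and Car14 are shown for genes with whole liver as their single high array. That of Car12 is shown as a contrast, since whole liver is not where it was high. The promoter sequences used here did not include that of Car1. Each runs 5′ to 3′ from 250 bases before to 50 after the annotated start, with matches to 3 motifs, searched on both strands, in capitals. The first motif is TATAAA, the box near many start sites. The next is GTTAAT, a piece of the site of the hepatocyte factor HNF1. The last is ACGTG, the core of the hypoxia response element.
Car5a, chr8:121944863-121945162, strand minus: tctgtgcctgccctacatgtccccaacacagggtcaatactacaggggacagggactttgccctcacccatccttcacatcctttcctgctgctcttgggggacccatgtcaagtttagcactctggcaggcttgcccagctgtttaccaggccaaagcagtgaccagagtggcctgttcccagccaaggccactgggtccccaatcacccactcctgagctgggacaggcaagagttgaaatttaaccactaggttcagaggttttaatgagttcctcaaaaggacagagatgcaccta
Car14, chr3:95904636-95904935, strand minus: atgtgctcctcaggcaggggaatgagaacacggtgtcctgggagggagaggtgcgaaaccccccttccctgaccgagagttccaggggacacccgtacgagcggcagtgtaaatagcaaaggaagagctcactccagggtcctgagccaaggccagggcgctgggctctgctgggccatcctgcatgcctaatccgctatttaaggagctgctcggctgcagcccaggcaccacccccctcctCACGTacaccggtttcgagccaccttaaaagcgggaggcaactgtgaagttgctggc
Car12, chr9:66713436-66713735, strand plus: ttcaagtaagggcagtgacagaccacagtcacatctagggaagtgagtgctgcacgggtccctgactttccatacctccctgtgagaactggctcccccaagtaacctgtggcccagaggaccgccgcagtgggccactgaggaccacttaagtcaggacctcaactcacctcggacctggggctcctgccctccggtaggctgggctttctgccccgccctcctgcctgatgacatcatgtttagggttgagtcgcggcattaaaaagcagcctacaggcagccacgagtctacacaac

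Car14 holds a single match, the hypoxia core on the opposite strand, beginning at base 244 of the window, and the Car5a and Car12 windows hold none of the 3 motifs. The window of Car4, a gene below the median on every array, is not shown. It holds the hypoxia core on the opposite strand from base 253 and TATAAA from base 293. Of 32851 promoters of the same length, 13.6% hold the box motif, 7.10% the HNF1 piece and 19.6% the hypoxia core. A match here describes letters only.

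Against whole liver, 4 to 6 of the 9 members were lower in each sorted fraction without fibrosis. HSC had 6 of 9 lower (11.0% of all genes) and 0 higher (8.55%), with a median difference of -4.05 against -0.06 over all genes. VitA-GFP+ cells had 4 lower (7.26%) and 1 higher (10.5%), MC 4 lower (11.4%) and 0 higher (8.78%), and sham PF 6 lower (10.7%) and 2 higher (11.0%). The medians of the 9 were -1.61, -1.43 and -3.13 in the same order, against -0.20, -0.04 and 0.05 over all genes. The largest gaps were those of Car3, 181-fold lower in sham PF and 113-fold lower in HSC, and of Car8, 84.0-fold lower in MC and 72.8-fold lower in HSC. The higher members were Car13 in VitA-GFP+ cells (2.28) and in sham PF (4.07) and Car12 in sham PF (2.58). The Car13 call in VitA-GFP+ cells ended under 4 alternatives, among them quantile normalization (1.90) and the mean of its probe sets (1.46), and its other probe sets differed by 1.5 and 0.58. The 4 comparisons share the whole-liver array, so its level enters each. That of sham PF also crosses the sample codes, with Gapdh 3′/5′ ratios of 13.2 and 1.42. Fraction, sample code and RNA quality therefore cannot be told apart for Car12 and Car13 in sham PF. Whole liver also differs from HSC in Xist (11.40 and 4.37) and Ddx3y (2.04 and 10.99). Xist and Ddx3y were at 4.47 and 10.47 in VitA-GFP+ cells, 11.41 and 9.67 in MC and 11.96 and 2.78 in sham PF. The part of sex in the differences from whole liver was not tested. In RNA of mixed cells, fewer cells of a type and less RNA per cell cannot be told apart.

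Car3 was the member with the widest range, 7.50 on the log2 scale. This cytosolic form has low activity, is abundant in skeletal muscle, fat and liver, and is known for protecting cells from oxidation. It was at 13.99 in whole liver, 12.56 in MC, 10.15 in MC of biliary fibrosis, 9.19 in PF of biliary fibrosis and 8.99 in VitA-GFP+ cells. HSC of biliary fibrosis had 7.81, HSC 7.18 and sham PF 6.49. MC was 11.9-fold above the higher of HSC and VitA-GFP+ cells, and 1 of 9 members met the 4-fold rule there against 0.933% of all genes. All 4 probe sets of Car3 placed whole liver first and MC next by log2 value. In 1 of them MC (9.07) and MC of biliary fibrosis (9.01) cannot be ordered, since their array medians were 5.52 and 5.36.

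Markers of the cells best known for Car3 were read beside its level in MC, and their part in that level was not tested. Hepatocyte markers had 1 of 12 at or above the median in MC, with a summed intensity of 311 against 5357 in HSC, where Car3 differed from MC by -5.39. Skeletal muscle markers had 1 of 6 at or above the median and a summed intensity of 127 in MC, within the 84.5 to 1005 of all sorted arrays. Adipocyte markers had 0 of 5 and 84.1, within 49.3 to 237. Markers of MC itself were all 11 at or above the median.

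**Figure D2:**
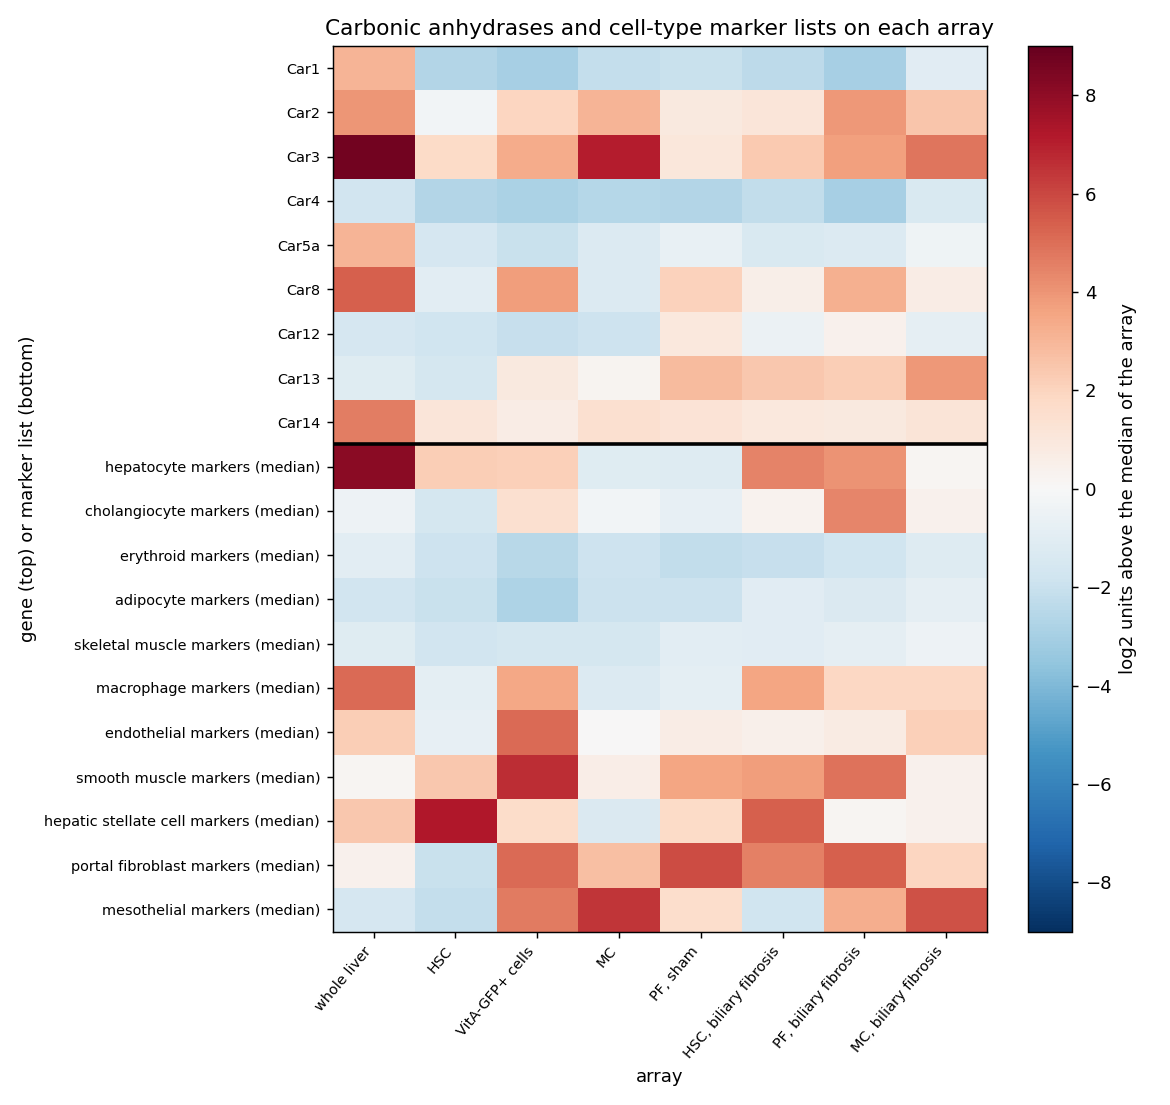
Log2 units above the array median (colour) for the 9 genes (top rows) and the median of 11 cell-type marker lists (bottom rows) on each of the 8 arrays (columns). Car3 is 7.04 above the median in MC, where hepatocyte markers have a median of -1.12 and mesothelial markers one of 6.42.

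Car2, the fast cytosolic form known in bile duct epithelium, red cells and osteoclasts, was high on several arrays. It was at 9.40 in PF of biliary fibrosis, 9.25 in whole liver, 8.60 in MC, 7.83 in MC of biliary fibrosis and 7.63 in VitA-GFP+ cells. HSC of biliary fibrosis had 6.54, sham PF 6.35 and HSC 5.19, the only array below its median. The leading pair, PF of biliary fibrosis and whole liver, cannot be ordered: relative to the array medians whole liver was ahead by 0.02. When sham PF replaced VitA-GFP+ cells, Car2 was 2.24 above the higher of the other 2 fractions in MC, against 0.96 with the latter.

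Car8, the acatalytic member, was at 10.69 in whole liver, 9.43 in VitA-GFP+ cells, 8.70 in PF of biliary fibrosis and 7.56 in sham PF. The arrays of HSC and MC were lower, with 6.0 in both of biliary fibrosis, 4.51 in HSC and 4.30 in MC, the last pair below the array median. VitA-GFP+ cells had it 30.4-fold above the higher of HSC and MC, and 1 of 9 members met the rule there against 3.15% of all genes. HSC had 0 of 9 above both others, against 1.02% of all genes. The probe set chosen for Car8 carries a suffix that marks several transcripts. Among its probe sets that match 1 transcript only, the one with the higher mean differed by 1.71, under the rule. The other one met the rule, at 6.70 in VitA-GFP+ cells and at most 3.05 in HSC and MC. The mean of all Car8 probe sets met it too, with a difference of 3.44. VitA-GFP+ cells also had the largest summed intensity of endothelial (24438) and smooth muscle (37080) markers of all arrays. In PF of biliary fibrosis the endothelial sum was 788. Portal fibroblast markers summed to 35990 in VitA-GFP+ cells, 24589 in PF of biliary fibrosis and 45084 in sham PF, but also to 23465 in MC. The part of any of these cells in the Car8 level was not tested.

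Car12 and Car13, like Car4, were below the array median in whole liver. Car12, a transmembrane form induced by hypoxia and by oestrogen in human cells, was at 6.41 in sham PF and 5.87 in PF of biliary fibrosis. All others were below the array median, with 4.89 in HSC and 4.57 in MC of biliary fibrosis, 3.83 in whole liver, 3.67 in HSC, 3.63 in MC and 3.59 in VitA-GFP+ cells. Sham PF was 5.98-fold above whole liver, but the mean of its 3 probe sets differed by 1.16, under the rule.

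Car4, the lipid-anchored form of kidney and of lung capillaries, was below the array median on every array. It read 3.59 in whole liver, 2.86 in HSC, 2.80 in VitA-GFP+ cells, 2.96 in MC, 2.85 in sham PF, 3.20 in HSC, 2.52 in PF and 3.98 in MC of biliary fibrosis. The range of 1.46 is the smallest of the 9, and its other probe set was below the median on every array too.

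Car13, a cytosolic form found in many epithelia and in the kidney and gut, followed the arrays of biliary fibrosis and of sham PF. It was at 9.24 in MC of biliary fibrosis, 8.32 in sham PF, 7.88 in HSC and 7.70 in PF of biliary fibrosis. Values were lower in VitA-GFP+ cells (6.52), MC (5.76), whole liver (4.24) and HSC (3.88). The 4 high arrays are the 4 with sample codes in AI and with the high Gapdh ratios, and the ranges of 7.70 to 9.24 and 3.88 to 6.52 do not overlap. Of all named genes, 5.03% had all 4 AI arrays above all others and above the median, and 1 of the 9 members, Car13, was among them. The chosen probe set of Car12 was also higher on all 4 AI arrays (4.57 to 6.41) than on the others (3.59 to 3.83). It was left out of this count because it did not reach the median on every AI array.

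In biliary fibrosis the members that differed most were Car2 and Car3 in PF and Car13 in HSC and MC. Only the PF pair has a sham array of its own fraction. PF of biliary fibrosis had 2 of 9 members 4-fold higher (3.77% of all genes) and 0 lower (1.58%). Car2 was at 9.40 against 6.35 in sham PF, 8.24-fold higher. Car3 was at 9.19 against 6.49, 6.50-fold higher. The other 7 differed by -0.97 to 1.15, and the median of the 9 was -0.32 against -0.01 over all genes.

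The Car2 and Car3 differences came with bile duct, hepatocyte and mesothelial markers alike. Cholangiocyte markers had 10 of 10 at or above the median in PF of biliary fibrosis and 3 of 10 in sham PF, with summed intensities of 8475 and 1175, and 9 of 10 were 4-fold higher. Hepatocyte markers had 11 of 12 and 4 of 12, with sums of 17111 and 4323, and 9 of 12 were 4-fold higher and 1 lower. Mesothelial markers had 10 of 11 and 7 of 11, with sums of 9881 and 3755, and 4 of 11 were 4-fold higher. In MC itself, Car3 was at 12.56 and Car2 at 8.60. Cftr, the bile duct chloride channel, was higher by 5.64 and Cps1 by 3.48. Xist, expressed from the inactive X, was at 11.96 in sham PF and 5.31 in PF of biliary fibrosis, and the Y-linked Ddx3y at 2.78 and 11.83. The part of bile duct cells, hepatocytes, mesothelial cells or sex in either difference was not tested.

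Car3 in the PF pair depended on the probe set and on the reference array. Its 3 other probe sets differed by 1.80, 0.16 and -0.01, the last pair of them below the median on both arrays, and the mean of all 4 by 1.16. With VitA-GFP+ cells as the reference, Car3 differed by 0.20 and Car2 by 1.76, both under the rule, and Car12 met it instead (2.28).

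HSC of biliary fibrosis had 1 member 4-fold higher than HSC with no stated injury (5.90% of all genes) and 0 lower (3.13%). That was Car13, at 7.88 against 3.88, 16.0-fold higher, and its other 2 probe sets differed by 2.71 and 3.25. The other 8 differed by -0.16 (Car14) to 1.5 (Car8), with a median over the 9 of 0.63 against 0.13 over all genes. Car3 was higher by 0.63 with the chosen probe set but differed by -0.52, -1.29 and -3.97 in its 3 others. With the 75th percentile of the array as minimum level, Car13 no longer met the rule.

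MC of biliary fibrosis had 1 member higher (6.20% of all genes) and 1 lower (4.68%) than MC with no stated injury. Car13 was at 9.24 against 5.76, 11.2-fold higher, and its other 2 probe sets differed by 2.23 and 3.54. Car3 was at 10.15 against 12.56, 5.32-fold lower. Its 3 other probe sets ran from -6.36 to -0.07, so the size of the difference rests on the probe set. Among the rest, Car8 differed by 1.70 and Car2 by -0.77, and the median of the 9 was 0.94 against 0.25 over all genes.

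Both the HSC and MC pairs cross the sample codes and the 3′/5′ ratios of Gapdh, 1.75 against 5.68 in HSC and 2.01 against 13.8 in MC. The MC pair also differs in Xist, at 11.41 in MC and 5.84 in MC of biliary fibrosis, with Ddx3y at 9.67 and 11.78. Injury, sample code and RNA quality therefore cannot be told apart for Car13 and Car3 in these 2 pairs, nor can the Xist difference in MC. In the PF pair, where both arrays share the code and the ratios are 13.2 and 10.2, Car13 differed by -0.62, with other probe sets at 0.19 and 1.17. Markers of other cells were 4-fold higher beside Car13. In the HSC pair these were 9 of 11 portal fibroblast markers (median 4.58), 9 of 10 macrophage, 8 of 12 hepatocyte and 5 of 10 cholangiocyte markers. In the MC pair they were 7 of 10 macrophage and 4 of 12 hepatocyte markers, with 1 of 11 portal fibroblast markers, and 4 of 11 mesothelial markers were lower beside Car3. In the PF pair 6 of 10 macrophage markers were higher as well. The part of these cells in the Car13 and Car3 differences was not tested.

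**Figure D3:**
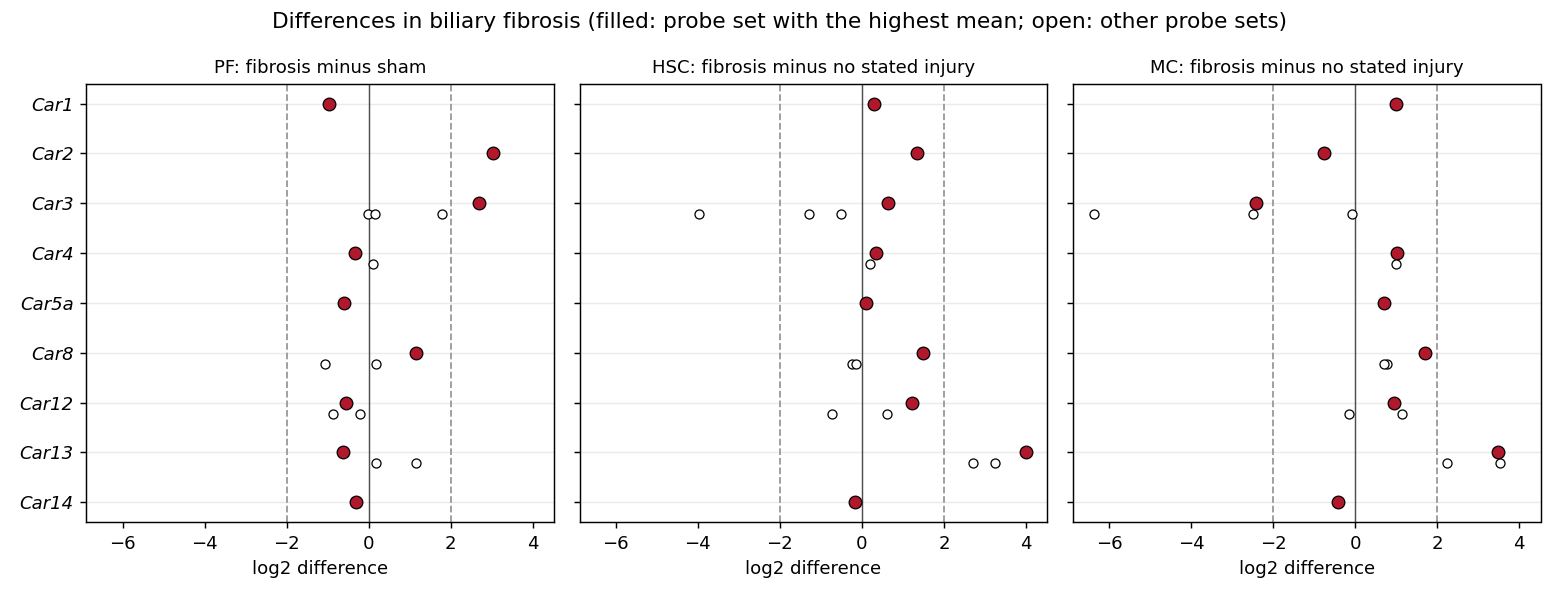
Log2 difference (horizontal axis) of each member (vertical axis) between biliary fibrosis and its reference array in PF, HSC and MC, with the chosen probe set filled, other probe sets open and dashed lines at 4-fold. All 3 probe sets of Car13 lie beyond the line in HSC and MC, and those of Car3 spread from -6.36 to -0.07 in MC.

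**Figure D4:**
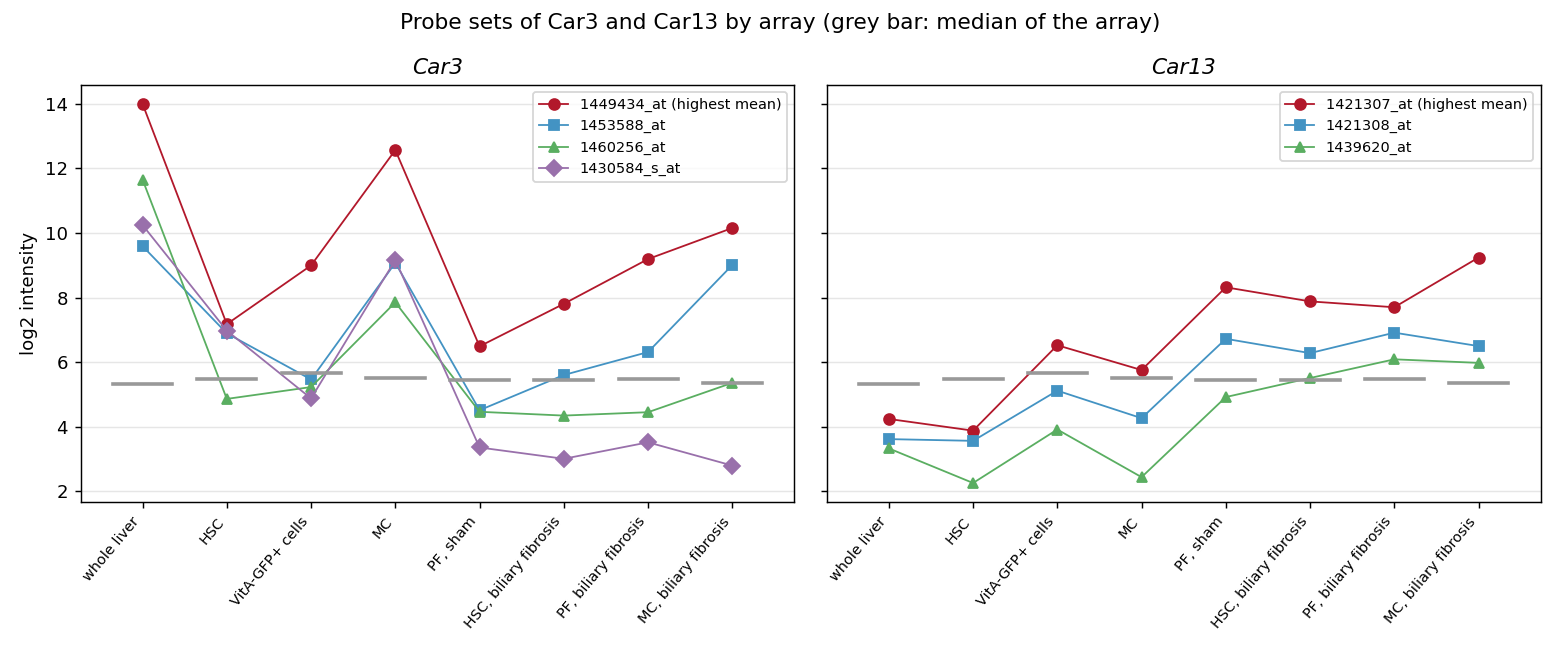
Log2 intensity (vertical axis) of the 4 probe sets of Car3 (left) and the 3 of Car13 (right) on the 8 arrays (horizontal axis), with grey bars for the median of the array. All Car3 probe sets are highest in whole liver and next in MC, and all Car13 probe sets are higher in the arrays of sham PF and biliary fibrosis than in the other 4.

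The other family genes were Car5b, Car6, Car7, Car9, Car10, Car11 and Car15, and 1 of the 7 met the 4-fold rule anywhere. Car9, a transmembrane form induced by hypoxia and present in gut and bile duct epithelium, was at 9.99 in MC, 9.86 in MC of biliary fibrosis, 8.02 in PF of biliary fibrosis and 7.59 in VitA-GFP+ cells. It was at 4.61 in sham PF, 4.51 in whole liver, 3.98 in HSC and 3.25 in HSC of biliary fibrosis. PF of biliary fibrosis had it 10.6-fold above sham PF, in the pair where Car2 was 8.24-fold higher, and MC had it 5.27-fold above both other fractions, as with Car3. Car6 (secreted in saliva), Car7 (cytosolic, of brain) and Car10 (acatalytic) were below the array median on all arrays.

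Transporters of bicarbonate and protons, 23 of them, work beside carbonic anhydrases. Compared with whole liver, HSC had 0 higher and 6 lower, VitA-GFP+ cells 6 and 2, MC 7 and 3 and sham PF 3 and 3, with medians of -0.56, 0.10, 0.67 and 0.21. Over all genes the shares higher were 8.55%, 10.5%, 8.78% and 11.0% in the same order. Those lower were 11.0%, 7.26%, 11.4% and 10.7%, and the medians -0.06, -0.20, -0.04 and 0.05. MC had Slc4a11 higher by 7.50 and the chloride-bicarbonate exchanger Slc26a3 by 6.21, and Slc4a11 is known from the corneal endothelium. In the fibrosis pairs, 2 were higher and 0 lower in PF (median 0.05), 6 and 0 in HSC (0.62) and 1 and 3 in MC (0.08). Over all genes 3.77% were higher and 1.58% lower in PF (median -0.01). The shares were 5.90% and 3.13% in HSC (0.13) and 6.20% and 4.68% in MC (0.25). HSC of biliary fibrosis had the sodium-bicarbonate cotransporter Slc4a4 higher by 2.42 and the lactate transporter Slc16a1 by 2.89. Slc4a11 was higher by 2.22 in PF and differed by -3.02 in MC of biliary fibrosis, beside Car3 at 2.70 and -2.41.

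Hypoxia-induced genes outside the family were compared because Car9 and Car12 belong to that response. Of 12, 4 were higher and 0 lower in HSC of biliary fibrosis (median 0.76), 3 and 0 in MC (0.51) and 0 and 0 in PF (-0.07). Over all genes the shares higher were 5.90%, 6.20% and 3.77% in the same order, and those lower 3.13%, 4.68% and 1.58%. Hk2, a hexokinase, was higher by 5.42 in HSC and 2.80 in MC and differed by -1.22 in PF. Vegfa, the vessel growth factor, was higher by 3.27 in HSC and 3.22 in MC. Car9 was the member of the response that was higher in PF, where none of the 12 met the rule.

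For each member with a range of at least 2, the genes with the most similar profile were found by Pearson correlation over the 8 arrays among 8663 genes. With 8 points and 1 array far from the rest, high values are common, and the arrays share sample codes and RNA quality. Car5a was closest to Gpr12 (0.990), Slc30a10 and Klk1b4, Car14 to Cyp2c39 (0.997), Rdh16 and Dpys, and Car1 to Cyp2b10 (0.996), Klk1b4 and Hsd3b2. Car3 was close to Ahcy (0.972) and Net1, Car2 to Celsr1 (0.964) and Slc39a4, and Car8 to Tnfaip8l1 (0.984), Smoc1 and Zfp707. Car12 was closest to Tcfl5 (0.987), Polr3a and Mbtps2, and Car13 to Sdcbp2 (0.982), Tom1 and Cep295nl.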

How the data were processed

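Expression was measured on 8 arrays, 1 per group. The deposited values are probe set intensity on the linear scale, and the authors normalized them. The submitters' processing notes name RMA and Partek. Versions, and whether all arrays were normalized together, are not given in the sources used here. Both deposited tables were identical (largest difference 0), and 1 was read.

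Log2 was taken of the intensity. Of 45101 probe sets, 64 are controls and 38011 name 1 gene. Gene identifiers gave current symbols from the RefSeq table (GRCm38.p6) for 20677 genes, each by its probe set with the highest mean. A gene counts as different at 4-fold with the higher array at or above its median of non-control probe sets. A fold against a level under the array median rests on a weak signal. Precision is limited by the number of arrays. The calling rule was run on simulated data as a check of the code. The differences added there were larger than the rule and only in genes of high level. That run therefore cannot give the error of the calls made here.

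The members and lists were chosen with earlier results of these data known. All members are named, other family genes where measured, at most 4 genes of a partner list per pair by size, and up to 3 of the most similar genes per member, of which some are not reported here. Alternatives were another normalization, minimum level, probe set rule, size rule or reference array. The planned comparison of protein sequences was not made here. Software was Python 3.11.15, pandas 2.3.3, numpy 2.4.6 and, for figures, matplotlib 3.10.9.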

Additional observations from a re-analysis of the deposited data

Results flagged for a closer look

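Car3 differed in opposite directions between 2 fractions of biliary fibrosis, which is what singled it out. It was higher by 2.70 in PF of biliary fibrosis than in sham PF (-0.01 to 2.70 over its 4 probe sets), and the log2 difference was -2.41 in MC of biliary fibrosis against MC with no stated injury (-6.36 to -0.07). The difference between the pairs was not tested, since each group is 1 array.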

How the results depend on the processing

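No paired analysis was possible because each group is 1 array. Of the counts of members recomputed under alternatives, 108 stayed within 1.5 times the reported count and 16 did not, and no called difference changed sign. For members higher in VitA-GFP+ cells than in whole liver, the count of 1 became 0 with quantile normalization anew (Car13 at 1.90), with arrays shifted to the same median (1.91), with the 75th percentile as minimum level and with the mean of probe sets. Sham PF against whole liver went from 2 to 1 with the last of these settings and with the 75th percentile. With the 75th percentile, HSC of biliary fibrosis went from 1 higher to 0. In MC of biliary fibrosis, quantile normalization gave 2 higher (Car8 at 2.10 joined). The 2-fold rule gave 2 higher in that pair, 3 in HSC of biliary fibrosis and 1 in MC against whole liver. The mean of probe sets gave 1 higher in PF of biliary fibrosis, and VitA-GFP+ cells as its reference also gave 1, which was Car12 in place of Car2 and Car3. Probe sets without suffix, taking that with the highest mean per gene, left 0 higher in VitA-GFP+ cells against the other 2 fractions. This setting also drops Car14, whose only probe set has a suffix. Against whole liver, the members lower then went from 6 to 5 in HSC and sham PF and from 4 to 3 in VitA-GFP+ cells and MC. When sham PF replaced VitA-GFP+ cells, 3 members were higher in it and 2 in MC. Causes were not tested.

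Limits: 1 array per group, no background flags, and comparisons that cross sample codes. These are the fibrosis pairs of HSC and MC, sham PF against whole liver, and each exchange of sham PF and VitA-GFP+ cells.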

Other observations

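Car13, Car1, Car3 and Car2 lie next to each other among protein-coding genes of chromosome 3 in the RefSeq table (GRCm38.p6), in that order. Their profiles differed: whole liver was the single high array for Car1, whole liver and MC were highest for Car3, PF of biliary fibrosis and whole liver for Car2, and MC of biliary fibrosis and sham PF for Car13.

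Enzymes that consume bicarbonate were compared with whole liver in the 4 sorted fractions without fibrosis. Of 8 measured, HSC had 6 lower and 0 higher, VitA-GFP+ cells 6 and 0, MC 5 and 0 and sham PF 4 and 1, with medians of -2.83, -2.49, -2.18 and -2.47. Over all genes the shares lower were 11.0%, 7.26%, 11.4% and 10.7% in the same order, and those higher 8.55%, 10.5%, 8.78% and 11.0%. In biliary fibrosis 1 of 8 was higher and 0 lower in each pair, Cps1 in HSC (2.95) and PF (3.48) and Cad, which starts pyrimidine synthesis, in MC (2.06). Over all genes 5.90%, 3.77% and 6.20% were higher in HSC, PF and MC, and 3.13%, 1.58% and 4.68% lower.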
